A study of Mus musculus with 12 samples.

Results

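Axon guidance ligands and receptors were followed through lung development in mouse cells positive for 2 reporters, Acta2-dsRed and Pdgfra-GFP. The genes were taken by symbol and comprised the semaphorins of classes 3 to 7, plexins, neuropilins, Slits, Robos, netrins, netrin receptors (Dcc, Neo1 and the Unc5 genes), ephrins and Eph receptors. They numbered 69 of 28004 genes in the table, and 60 of them passed the filter on low counts. The whole lung was dissociated, cells positive for both reporters were sorted, and RNA of the sorted pool was sequenced in bulk at 4 stages. These were E17.5, late in gestation, and the postnatal days P3, P7 and P10, and each stage had 3 libraries. Every library carried the same reporter genotype, and the labels give stage as the one difference between groups. The reporters mark cells by the Acta2 (smooth muscle actin) and Pdgfra (platelet-derived growth factor receptor alpha) genes and separate no cell types within the double-positive gate. Whether replicate libraries derive from different animals is not stated in the labels, and p-values therefore reflect sample-to-sample spread that could be technical. In a bulk library, fewer cells of a type and less RNA per cell cannot be told apart.

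Guidance molecules act as pairs of ligand and receptor on neighbouring cells. Netrins bind Dcc, neogenin and Unc5 receptors, secreted Slits bind Robo receptors, and semaphorins bind plexins, with neuropilins as co-receptors for most of the secreted class 3. Ephrins are held on the membrane and bind Eph receptor tyrosine kinases by cell contact, so that signals can pass into both cells. The families were named in the nervous system and also act in branching, vessel growth and cell positioning in the lung.

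Promoter sequences are shown for 3 receptor genes that differed between stages, as 250 bases before the RefSeq start on build GRCm38.p6. Their windows overlap no annotated exon on the same strand, and the opposite strand was not checked. Both strands were searched, and capitals mark a match to the motif or to its reverse complement. For Unc5b and Epha5 the motif is the GC box GGGCGG, the element bound by Sp family factors. For Epha3 it is GGAATG, the core bound by TEAD factors, through which the Hippo pathway named in the series title acts on genes.
Unc5b chr10:60831582-60831831 minus strand: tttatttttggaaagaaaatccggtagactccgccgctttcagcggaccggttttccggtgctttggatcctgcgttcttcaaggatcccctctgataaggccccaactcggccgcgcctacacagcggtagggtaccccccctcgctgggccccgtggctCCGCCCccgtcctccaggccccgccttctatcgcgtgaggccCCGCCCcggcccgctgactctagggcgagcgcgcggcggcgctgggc
Epha5 chr5:84417383-84417632 minus strand: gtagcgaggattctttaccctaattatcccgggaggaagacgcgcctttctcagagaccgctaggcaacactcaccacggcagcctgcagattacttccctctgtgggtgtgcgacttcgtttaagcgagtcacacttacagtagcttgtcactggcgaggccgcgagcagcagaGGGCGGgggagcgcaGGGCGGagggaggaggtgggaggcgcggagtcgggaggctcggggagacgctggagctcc
Epha3 chr16:63864176-63864425 minus strand: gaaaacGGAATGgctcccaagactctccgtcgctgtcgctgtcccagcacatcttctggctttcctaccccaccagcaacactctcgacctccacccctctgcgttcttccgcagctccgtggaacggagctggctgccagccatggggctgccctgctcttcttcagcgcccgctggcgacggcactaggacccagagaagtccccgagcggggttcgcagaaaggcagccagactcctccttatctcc
The windows of Unc5b and Epha5 hold 2 GC boxes each, and that of Epha3 holds 1 TEAD core. RefSeq promoter entries were matched for 59 of the 69 genes and gave 75 promoters. The GC box was found in 52 of these 75 promoters (69.3%), against 32.7% of all 32851 promoters of the same length. The promoters were not matched for GC content, and whether the difference goes beyond GC content was not tested. The TEAD core was found in 8 of 75 (10.7%), those of Efnb2, Epha1, Epha2, Epha3, Ntng1, Plxnb1, Plxnd1 and Sema4a, against 12.6% of all promoters. A match describes the letters of the window and is not evidence of binding.

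Library totals ranged from 13328623 to 18740591 estimated counts, and Spearman correlations were 0.938 to 0.961 within a stage and 0.872 to 0.954 between stages. Acta2 lay at 347 to 696 CPM at E17.5, 984 to 1075 at P3, 690.5 to 952 at P7 and 364 to 676 at P10, and Pdgfra lay at 268 to 409 CPM at E17.5, 165 to 207 at P3, 168 to 218 at P7 and 177 to 249 at P10. E17.5 replicate 1 stood apart from the other E17.5 libraries. The summed level of 12 alveolar fibroblast markers, a list chosen after this library was seen to differ, was 2835, 688 and 610.1 CPM in E17.5 replicates 1, 2 and 3, against 694 to 974 CPM at P3, 275 to 424 at P7 and 343 to 389 at P10. Macf1, a broadly expressed cytoskeletal gene, made up a large part of that sum. Without it the 11 remaining markers summed to 1654, 353 and 280.2 CPM at E17.5, against 354 to 535 CPM at P3, 58.2 to 141 at P7 and 59.5 to 107 at P10. The summed endothelial markers (12 of 12 tested) were 49.2, 139 and 134 CPM in P10 replicates 1, 2 and 3 and 65.2 to 83.9 CPM at E17.5. P10 replicate 1 also stood apart from P10 replicates 2 and 3 in other markers. In P10 replicates 1, 2 and 3, Acta2 lay at 676, 364 and 420 CPM. Alveolar epithelial markers (12 of 12 tested) summed to 56.7, 199.5 and 149 CPM in these libraries, and airway epithelial markers to 70.9, 205 and 252 CPM. At E17.5 the alveolar epithelial sum was 132 to 181 CPM. Airway epithelial markers (3 of 8 tested) summed to 85.04 to 135 CPM at P3 and 70.9 to 252 at P10, against 15.4 to 24.8 CPM at E17.5. Erythroid markers summed to 31.8 to 53.6 CPM at P3 and 27.01 to 53.6 at P10, against 117 to 179 CPM at E17.5. Among neuron and Schwann cell markers, S100b lay at 14.2 to 20.7 CPM at P10 and 3.26 to 4.38 CPM at E17.5, while Sox10, Tubb3, Elavl4 and Snap25 were at or near 0. Immune markers (9 of 12 tested) summed to 20.8 to 26.5 CPM at P3 and 19.4 to 29.9 at P10, against 10.9 to 13.5 CPM at E17.5, and mesothelial markers (2 of 5 tested) to 2.32 to 4.46 CPM at P3 and 0.594 to 3.25 at P10, against 8.83 to 12.7 CPM at E17.5. Pericyte and vascular smooth muscle markers (8 of 8 tested) summed to 187 to 261 CPM at E17.5, 122 to 146 at P3, 119 to 132 at P7 and 145 to 169 at P10. Of these, Cspg4, Notch3 and Rgs5 fell at P3 against E17.5, and Rgs5 lay at 60.1 to 87.1 CPM at E17.5, 14.3 to 16.2 at P3, 21.4 to 34.3 at P7 and 47.4 to 84.4 at P10. The part of these other cells in the results was not tested. Values without E17.5 replicate 1 show the weight of that library and do not separate cell types. In E17.5 replicates 2 and 3 the sum of the 11 markers was still above every P7 and P10 library.

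The levels of the 69 genes spanned a wide range. The deposited values behave as if scaled per transcript length, which was seen only for transcripts under 900 bases. The longest transcripts of the 69 genes run from 1599 to 12877 bases, where it could not be seen. Setting levels in CPM beside each other between genes rests on that inference. Averaged over the 12 libraries, 7 genes were above 50 CPM, 20 lay from 10 to 50, 28 from 1 to 10 and 14 under 1. Robo2 was highest at 193 CPM, with library values from 160 to 244. Robo1 followed at 108 CPM, the secreted semaphorin Sema3c at 95.0, Sema6d at 67.1, Slit2 at 55.9, Plxnb2 at 54.5, the ephrin Efnb1 at 54.3 and the neuropilin Nrp1 at 48.2. Plxnb2 was the steadiest of these 8, from 49.8 to 61.8 CPM over all libraries, and neighbours in this order from Slit2 to Nrp1 overlapped in their library values. The 9 genes below the filter were Dcc, Epha8, Ntn5, Plxnb3, Sema4f, Sema5b, Sema6b, Slit1 and Unc5d, and none of them exceeded 1.29 CPM in a library. The netrin receptor Dcc, the best known in commissural axons, reached at most 0.135 CPM.

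**Figure D1:**
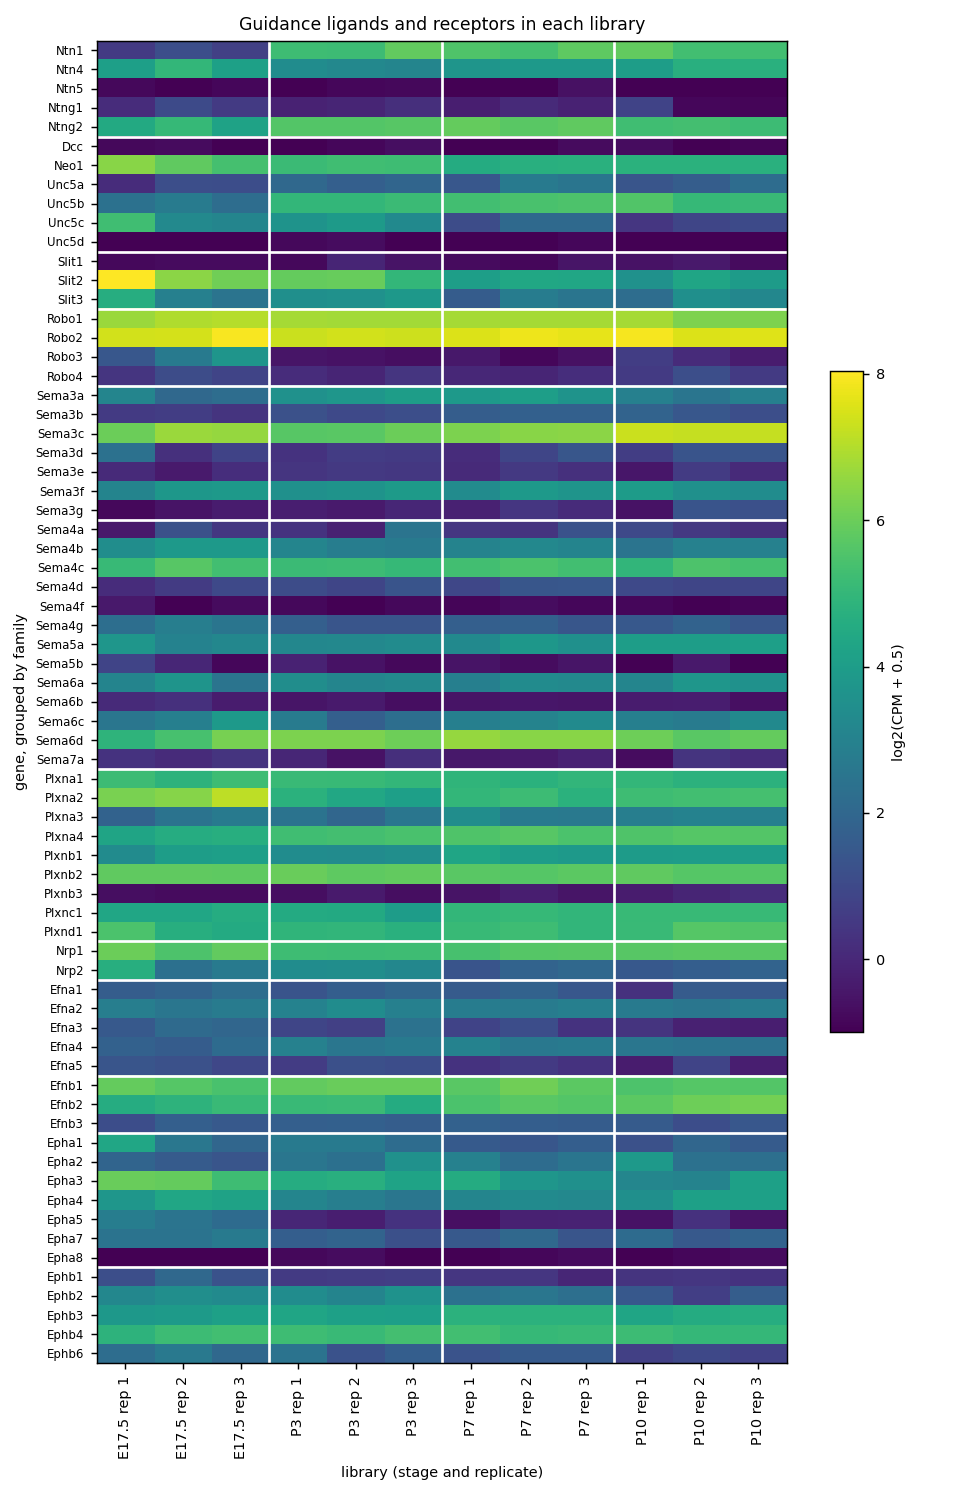
Level of each of the 69 guidance genes (rows, grouped by family) in each of the 12 libraries (columns, by stage), as log2(CPM + 0.5). Robo2, Robo1 and Sema3c are bright in all stages, Ntn1 and Unc5b are dark at E17.5 and bright at P3, P7 and P10, and Slit2 is brightest in E17.5 replicate 1.

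More guidance genes passed in the comparisons across birth than between postnatal stages. Of the 60 tested genes 31 (51.7%) differed over the 4 stages in edgeR's quasi-likelihood test, against 32.1% of all 16827 tested genes. At P3 against E17.5, 20 of 60 passed (33.3%, all genes 25.1%). Of these, 7 were higher (11.7%, all genes 13.1%) and 13 were lower (21.7%, all genes 12%). At P10 against E17.5, 27 of 60 passed (45%, all genes 18.3%), of which 12 were higher (20%, all genes 8.79%) and 15 lower (25%, all genes 9.5%). These comparisons share the E17.5 libraries and are given side by side. A value printed directly before an adjusted p is a log2 fold change in edgeR's test unless another tool is named. The median log2 fold change of the 60 genes was -0.10 at P3 and -0.07 at P10, against -0.05 and 0.005 for all genes. The median size of change, without sign, was 0.68 at P3 (all genes 0.45) and 0.67 at P10 (all genes 0.38).

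**Figure D2:**
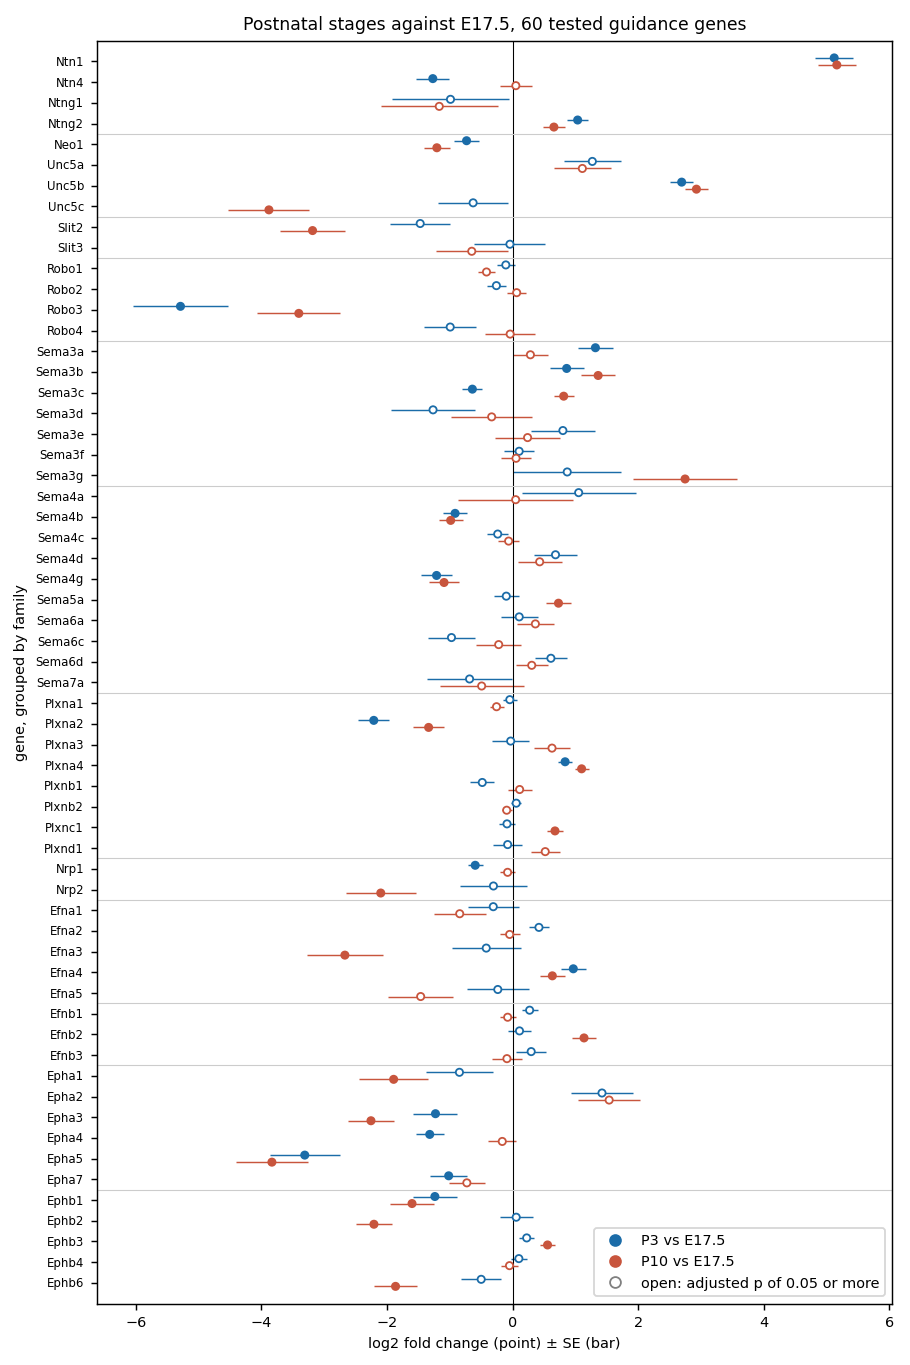
Log2 fold changes (points) with standard errors (bars) of the 60 tested guidance genes at P3 and at P10 against E17.5, grouped by family. Filled points passed an adjusted p of 0.05. Ntn1 and Unc5b lie far to the right in both comparisons, at 5.12 and 2.69 at P3, and Robo3 and Epha5 far to the left, at -5.29 and -3.31.

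Among the netrins, 2 of 4 tested rose and 1 fell at P3 against E17.5, and 2 rose at P10 against E17.5. Ntn1 (netrin-1, a secreted laminin-like ligand; chromosome 11, 68209364 to 68400823, minus strand of build GRCm38, as are all gene positions here) had 0.951, 1.75 and 1.15 CPM at E17.5, 36.9, 35.9 and 58.4 CPM at P3, 45.7, 40.6 and 55.6 CPM at P7 and 57.1, 38.8 and 39.1 CPM at P10. It was low in all E17.5 libraries and far higher in every postnatal library, with no overlap. The log2 fold change was 5.12 at P3 against E17.5 (SE 0.31, adjusted p = 8.1e-06) and 5.16 at P10 against E17.5 (SE 0.31, adjusted p = 3.21e-06). Ntng2 (netrin-G2, which is held on the membrane by a lipid anchor and does not act through Dcc or Unc5) had 22.2, 32.3 and 17.8 CPM at E17.5, 48.3, 48.1 and 51.5 CPM at P3, 58.95, 52.3 and 56.4 CPM at P7 and 37.6, 39.6 and 36.6 CPM at P10. All P3, P7 and P10 libraries lay above those of E17.5, with log2 fold changes of 1.04, adjusted p = 0.00176 at P3 and 0.66, adjusted p = 0.0230 at P10. The P10 call for Ntng2 ended without any 1 of E17.5 replicates 1 and 3 or P10 replicates 1, 2 and 3 (adjusted p between 0.0503 and 0.0747). Ntn4, a netrin of basement membranes, fell at P3. Ntn4 had 9.96, 8.72 and 8.17 CPM at P3, against 16.6, 31.4 and 16.95 CPM at E17.5 (log2 fold change -1.27, SE 0.26, adjusted p = 0.00571). At P10 it had 15.7, 25.4 and 26.03 CPM, which overlapped E17.5 (log2 fold change 0.05, adjusted p = 0.921). The pericyte marker Rgs5 was likewise lower at P3 than at E17.5 and overlapped E17.5 at P10. Other markers of that list did not share this course. Cspg4 (log2 fold change -2.57, adjusted p = 4.27e-06) and Notch3 (log2 fold change -1.21, adjusted p = 0.0080) were still lower at P10 against E17.5. Abcc9, Higd1b, Kcnj8, Mcam and Trpc6 did not pass at P3 against E17.5. Ntng1 averaged 0.612 CPM over all libraries.

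The netrin receptors moved in different directions. Unc5b (an Unc5 receptor, a family known for repulsion from netrin; chromosome 10, 60762593 to 60831581, minus strand), whose promoter is printed above, had 4.69, 6.33 and 4.22 CPM at E17.5, 31.2, 31.05 and 35.5 CPM at P3, 38.9, 42.9 and 45.1 CPM at P7 and 47.9, 32.5 and 34.6 CPM at P10. Like Ntn1 it was low in each E17.5 library and higher in each postnatal one, with log2 fold changes of 2.69 at P3 (SE 0.18, adjusted p = 1.36e-05) and 2.93 at P10 (SE 0.19, adjusted p = 4.98e-06). Unc5c went the other way by P10. It had 37.9, 9.05 and 8.14 CPM at E17.5, 11.9, 14.6 and 9.19 CPM at P3, 1.64, 3.72 and 3.73 CPM at P7 and 0.831, 1.36 and 1.53 CPM at P10. Replicate 1 was the highest of the E17.5 libraries, the P10 libraries all lay below those of E17.5, and the P3 libraries overlapped them. The alveolar fibroblast marker sum was also highest in that replicate, for a list chosen after that library was seen to differ. The fall at P10 (log2 fold change -3.88, SE 0.65, adjusted p = 0.00242) was -2.79, adjusted p = 0.000968 without E17.5 replicate 1. At P3 against E17.5 the value with all libraries was -0.63, adjusted p = 0.454, and it turned to 0.47, adjusted p = 0.398 without E17.5 replicate 1. Neo1 (neogenin, also a receptor for repulsive guidance molecules) fell in both comparisons, with 35.3, 37.8 and 37.1 CPM at P3 and 26.6, 26.5 and 26.3 at P10, against 85.8, 56.2 and 41.3 CPM at E17.5. Its log2 fold changes were -0.73, adjusted p = 0.0239 at P3 and -1.21, adjusted p = 0.00247 at P10. The P3 call ended without any 1 of P3 replicates 1, 2 and 3 (adjusted p between 0.0615 and 0.0762), and without E17.5 replicate 1 the P3 value was -0.40, adjusted p = 0.0444. Unc5a averaged 3.28 ± 0.453 CPM at P3 and 1.36 ± 0.650 CPM at E17.5 (SD, n = 3 each) and did not pass (log2 fold change 1.27, adjusted p = 0.0673), although it passed without P7 replicate 1 (log2 fold change 1.27, adjusted p = 0.0447). At P10, Unc5b and Neo1 were the highest of the tested netrin receptors.

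Slit2, a secreted Robo ligand (chromosome 5, 47983138 to 48307733, plus strand), had 262, 88.2 and 67.6 CPM at E17.5, 59.1, 60.2 and 31.3 CPM at P3, 16.3, 20.6 and 19.9 CPM at P7 and 11.3, 19.6 and 15.05 CPM at P10. Every P7 and P10 library lay below every E17.5 library, and E17.5 replicate 1 was the highest. At P10 against E17.5 Slit2 fell (log2 fold change -3.19, SE 0.52, adjusted p = 0.00241), and without E17.5 replicate 1 the value was -2.35, adjusted p = 0.000749. At P3 it did not pass (log2 fold change -1.47, SE 0.48, adjusted p = 0.0502). That P3 call is close to the threshold: it passed without E17.5 replicate 2 (log2 fold change -1.69, adjusted p = 0.0491) and also without E17.5 replicate 3 (log2 fold change -1.78, adjusted p = 0.0203), and was -0.63, adjusted p = 0.168 without E17.5 replicate 1. The alveolar fibroblast marker sum given above ran in the same order as Slit2 at E17.5, highest in replicate 1, and was lower at P7 and P10 than at P3. Because that list was chosen after replicate 1 was seen to differ, its height there was fixed in advance. A link to Slit2 was not tested. Slit3, the other tested Slit, had 24.5, 7.20 and 5.11 CPM at E17.5, 10.8, 11.5 and 13.4 CPM at P3, 2.59, 6.48 and 5.26 CPM at P7 and 4.22, 10.7 and 8.49 CPM at P10. The P3 and P10 libraries overlapped those of E17.5, the P7 libraries lay below those of P3, and Slit3 passed no comparison. Against E17.5 its values were -0.04, adjusted p = 0.970 at P3 and -0.65, adjusted p = 0.479 at P10. Both turned in sign without E17.5 replicate 1, to 0.96, adjusted p = 0.153 at P3 and 0.35, adjusted p = 0.647 at P10.

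Of the 4 tested Robo receptors 1 fell. Robo2 (chromosome 16, 73891839 to 74411825, minus strand) had 169, 177 and 244 CPM at E17.5, 159.9, 171 and 163 CPM at P3, 189, 221 and 206 CPM at P7 and 238, 187 and 192 CPM at P10. The P3 and P10 libraries overlapped those of E17.5, while the P7 libraries lay above those of P3, and Robo2 did not pass (log2 fold change -0.26, adjusted p = 0.237 at P3 and 0.06, adjusted p = 0.811 at P10 against E17.5). Robo1 had 102, 125 and 131 CPM at E17.5, 113, 110.3 and 108 CPM at P3, 113, 113 and 111 CPM at P7 and 112, 78.2 and 78.03 CPM at P10. It did not pass at P10 against E17.5 (log2 fold change -0.42, adjusted p = 0.0687), but did without P10 replicate 1 (log2 fold change -0.61, adjusted p = 0.00509) and also without E17.5 replicate 1 (log2 fold change -0.52, adjusted p = 0.0403). Robo3, a divergent member that in mammals binds Slits weakly, was detected mainly at E17.5. It had 2.24, 5.94 and 12.6 CPM at E17.5, 0.205, 0.171 and 0.135 CPM at P3, 0.249, 0.0563 and 0.158 CPM at P7 and 1.07, 0.582 and 0.305 CPM at P10. All postnatal libraries lay below the lowest E17.5 library, and the E17.5 libraries themselves spread widely. Robo3 fell at P3 (log2 fold change -5.29, SE 0.76, adjusted p = 0.000794) and at P10 (log2 fold change -3.40, SE 0.66, adjusted p = 0.00514). Without E17.5 replicate 3 the values were -4.50, adjusted p = 0.00208 at P3 and -2.64, adjusted p = 0.0204 at P10. Robo4, the Robo of endothelial cells, averaged 1.22 ± 0.456 CPM at P10 and 1.26 ± 0.421 CPM at E17.5 (SD, n = 3 each) and passed no comparison.

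**Figure D3:**
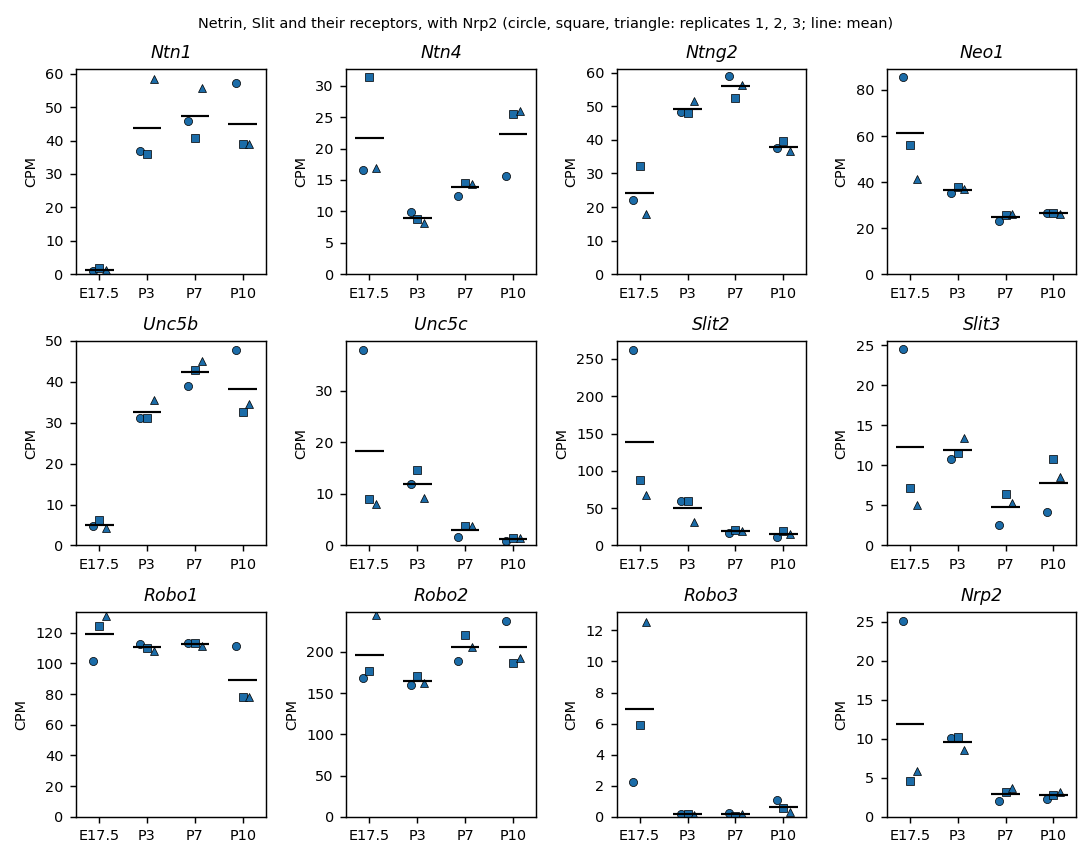
CPM (vertical axes) of netrins, Slits, their receptors and Nrp2 at each stage, with one point per library (circle, square and triangle for replicates 1, 2 and 3) and a line at the mean of 3. Ntn1 and Unc5b are higher in all postnatal libraries than at E17.5, while Slit2, Slit3, Unc5c and Nrp2 have their highest point in E17.5 replicate 1.

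Secreted class 3 semaphorins differed in timing. Sema3c (chromosome 5, 17574281 to 17730268, plus strand), which acts through neuropilins and plexins, had 64.4, 101 and 97.2 CPM at E17.5, 51.7, 52.4 and 64.04 CPM at P3, 76.2, 85.5 and 87.5 CPM at P7 and 157, 151 and 152 CPM at P10. P3 was the lowest stage and P10 the highest, and the P10 libraries lay above all others. Sema3c fell at P3 against E17.5 (log2 fold change -0.64, SE 0.16, adjusted p = 0.0134), rose at P10 against P7 (log2 fold change 0.89, SE 0.16, adjusted p = 0.0202) and rose at P10 against E17.5 (log2 fold change 0.81, SE 0.16, adjusted p = 0.00513). The P3 libraries overlap no E17.5 library by a narrow margin, and that call ended without any 1 of E17.5 replicates 2 and 3 or P3 replicates 1 and 2 (adjusted p between 0.0520 and 0.0685). The call at P10 against P7 ended without any 1 of P7 replicates 1, 2 and 3 or P10 replicates 2 and 3 (adjusted p between 0.0698 and 0.0851). Sema3a, the classical collapsin, peaked at P3 and P7, with 8.09, 3.70 and 4.22 CPM at E17.5, 11.3, 12.8 and 15.9 CPM at P3, 14.1, 16.4 and 12.04 CPM at P7 and 7.18, 5.18 and 7.17 CPM at P10. It rose at P3 against E17.5 (log2 fold change 1.32, SE 0.28, adjusted p = 0.00678) and was 0.28, adjusted p = 0.541 at P10 against E17.5. At P10 against P7 it was -1.12, adjusted p = 0.0532, and it passed without any 1 of E17.5 replicates 1, 2 and 3 (adjusted p between 0.0180 and 0.0468). It also passed in DESeq2 (log2 fold change -1.12, adjusted p = 0.00105), in limma-voom (log2 fold change -1.11, adjusted p = 0.0254) and with only the compared stages (adjusted p = 0.0376). It did not pass with DESeq2 size factors in edgeR or with a replicate block. Sema3b was low, at 1.69 ± 0.188 CPM at P3 and 2.40 ± 0.748 at P10, against 0.935 ± 0.145 CPM at E17.5 (SD, n = 3 each), and rose in both (log2 fold change 0.86 at P3, adjusted p = 0.0390, and 1.36 at P10, adjusted p = 0.00555). Its P3 call ended without any 1 of E17.5 replicates 1, 2 and 3, P3 replicates 1, 2 and 3, P7 replicates 1, 2 and 3 or P10 replicate 2 (adjusted p between 0.0545 and 0.106). Sema3g had 0.178, 2.07 and 1.83 CPM at P10, against 0.0680, 0.195 and 0.313 CPM at E17.5, and was high in the 2 P10 libraries whose endothelial marker sum was high. Its call (log2 fold change 2.75, adjusted p = 0.0431) ended without any 1 of E17.5 replicates 1, 2 and 3, P3 replicates 1, 2 and 3, P7 replicates 1, 2 and 3 or P10 replicates 2 and 3 (adjusted p between 0.0568 and 0.140), and without E17.5 replicate 3 the value was 3.36, adjusted p = 0.0573. Sema3d, Sema3e and Sema3f passed no comparison.

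Of 10 tested membrane semaphorins of classes 4 to 7, 2 fell at P3 against E17.5, and 1 rose and 2 fell at P10. Sema4b had 8.05, 6.61 and 6.01 CPM at P3 and 5.11, 7.25 and 7.32 at P10, against 10.3, 14.3 and 14.4 CPM at E17.5 (log2 fold change -0.92 at P3, adjusted p = 0.00596, and -0.99 at P10, adjusted p = 0.00514). Sema4g had 2.80, 2.11 and 2.09 CPM at P3, against 4.28, 6.81 and 5.16 CPM at E17.5 (log2 fold change -1.21, SE 0.24, adjusted p = 0.00493), and at P10 the value was -1.09, adjusted p = 0.0104. Both genes fell in each comparison. Sema5a rose at P10. Sema5a averaged 16.1 ± 0.542 CPM at P10 and 9.69 ± 2.88 CPM at E17.5 (SD, n = 3 each, log2 fold change 0.73, adjusted p = 0.0256). That call ended without any 1 of E17.5 replicates 2 and 3 or P10 replicates 1, 2 and 3 (adjusted p between 0.0512 and 0.0795). Sema6d, a plexin-A ligand and the highest of this group, had 28.9, 42.1 and 71.5 CPM at E17.5, 76.4, 76.1 and 65.1 CPM at P3, 97.1, 85.1 and 86.6 CPM at P7 and 64.8, 52.7 and 58.6 CPM at P10. It did not pass (log2 fold change 0.61, adjusted p = 0.108 at P3), but did without E17.5 replicate 3 at P3 (log2 fold change 1.05, adjusted p = 0.00239) and at P10 (log2 fold change 0.72, adjusted p = 0.0178). Sema4c, a plexin-B2 ligand, lay at 39.1 ± 7.83 CPM at P10 and 40.9 ± 8.77 CPM at E17.5 (SD, n = 3 each, log2 fold change -0.06, adjusted p = 0.840), and Plxnb2 did not pass either (log2 fold change -0.09, adjusted p = 0.463).

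The plexin-A receptors moved apart. Plxna2 (chromosome 1, 194618218 to 194816869, plus strand) had 73.5, 83.9 and 139 CPM at E17.5, 26.9, 20.7 and 16.6 CPM at P3, 31.4, 36.3 and 26.5 CPM at P7 and 37.4, 39.1 and 40.9 CPM at P10. All postnatal libraries lay below those of E17.5, and it fell at P3 (log2 fold change -2.21, SE 0.25, adjusted p = 0.000208) and at P10 (log2 fold change -1.34, SE 0.24, adjusted p = 0.00347). Plxna4 had 18.96, 23.7 and 25.1 CPM at E17.5, 38.3, 39.5 and 43.2 CPM at P3, 46.00, 50.7 and 44.2 CPM at P7 and 46.7, 50.1 and 48.4 CPM at P10. All its postnatal libraries lay above those of E17.5, and it rose at P3 (log2 fold change 0.84, SE 0.11, adjusted p = 0.000505) and at P10 (log2 fold change 1.10, SE 0.11, adjusted p = 8.98e-05). Plxna1 and Plxna3 passed neither comparison, at -0.26, adjusted p = 0.143 and 0.63, adjusted p = 0.167 for P10. Plxnc1, the receptor of Sema7a, rose at P10. Plxnc1 had 33.8, 33.9 and 33.7 CPM at P10, against 19.98, 20.05 and 23.5 CPM at E17.5 (log2 fold change 0.67, SE 0.13, adjusted p = 0.00528). Its ligand Sema7a averaged 0.502 ± 0.342 CPM at P10 and 0.705 ± 0.106 CPM at E17.5 (SD, n = 3 each). Plxnd1, an endothelial receptor for Sema3e, had 34.1, 49.4 and 47.2 CPM at P10, against 43.8, 25.01 and 22.3 CPM at E17.5, and did not pass (log2 fold change 0.52, adjusted p = 0.156), although it did without E17.5 replicate 1 (log2 fold change 0.88, adjusted p = 0.00661). Its P10 order followed the endothelial marker sum, lowest in replicate 1. At E17.5 the order was opposite, with endothelial sums of 65.2, 73.5 and 83.9 CPM in replicates 1, 2 and 3. A link was not tested.

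The neuropilins, co-receptors of class 3 semaphorins, also differed. Nrp1 had 63.3, 44.96 and 58.2 CPM at E17.5, 37.1, 36.5 and 36.7 CPM at P3, 42.3, 49.6 and 51.6 CPM at P7 and 51.5, 53.9 and 52.2 CPM at P10. It was lowest at P3, where no library overlapped E17.5 (log2 fold change -0.60, SE 0.12, adjusted p = 0.00545), and was back among the E17.5 values at P10 (log2 fold change -0.08, adjusted p = 0.705). Of the pericyte markers, Rgs5 was likewise lower at P3 than at E17.5 and overlapped E17.5 at P10, while Cspg4 and Notch3 were lower at both. Abcc9, Higd1b, Kcnj8, Mcam and Trpc6 of the same list did not pass at P3 against E17.5. The values of Higd1b (log2 fold change 0.77, adjusted p = 0.222) and Mcam (log2 fold change 0.29, adjusted p = 0.284) were positive there. Nrp2 had 25.1, 4.57 and 5.89 CPM at E17.5, 10.1, 10.2 and 8.58 CPM at P3, 2.04, 3.16 and 3.63 CPM at P7 and 2.32, 2.78 and 3.20 CPM at P10. E17.5 replicate 1 was the highest library, and the P3 libraries lay between it and the other E17.5 libraries. Nrp2 fell at P10 against E17.5 (log2 fold change -2.10, SE 0.56, adjusted p = 0.0257), and without E17.5 replicate 1 the value was -0.92, adjusted p = 0.0378. That call ended without any 1 of P10 replicates 1, 2 and 3 (adjusted p between 0.0707 and 0.0824). At P3 against E17.5 the value was -0.31, adjusted p = 0.723, and it turned to 0.88, adjusted p = 0.0396 without E17.5 replicate 1. The alveolar fibroblast marker sum was likewise highest in E17.5 replicate 1, for a list chosen after that library was seen to differ.

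**Figure D4:**
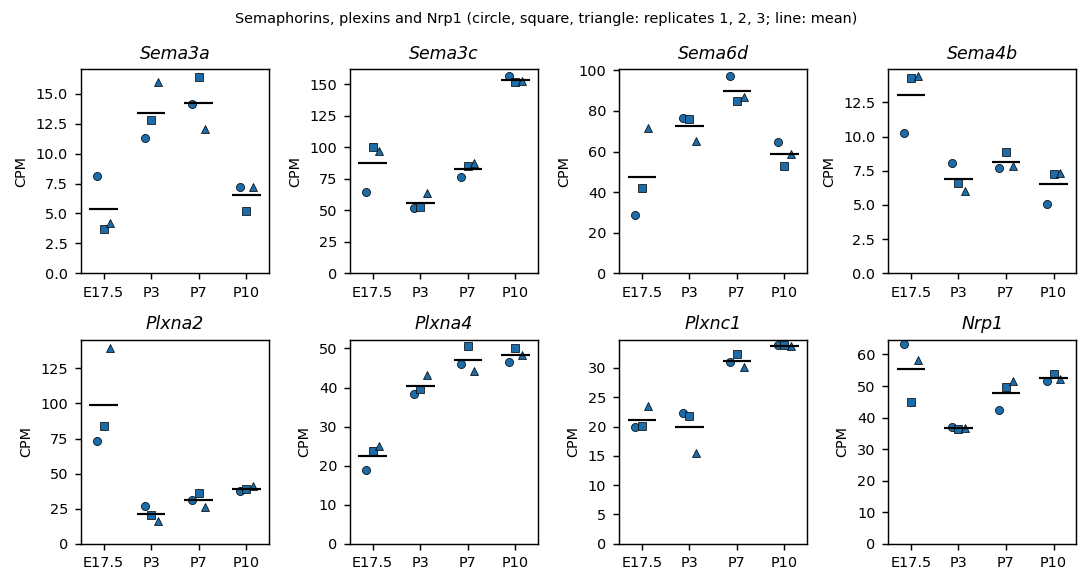
CPM (vertical axes) of semaphorins, plexins and Nrp1 at each stage, with one point per library (circle, square and triangle for replicates 1, 2 and 3) and a line at the mean of 3. Sema3c is highest in all P10 libraries, Plxna2 is highest in all E17.5 libraries, and Plxna4 is lowest in all E17.5 libraries.

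Among the ephrins, membrane-bound ligands, Efnb2 and Efna4 rose. Efnb2, the transmembrane ligand of Ephb4 and an arterial gene, had 23.7, 28.5 and 34.2 CPM at E17.5, 34.6, 35.5 and 23.1 CPM at P3, 44.4, 52.97 and 48.7 CPM at P7 and 54.2, 65.3 and 70.6 CPM at P10. It rose at P10 against E17.5 (log2 fold change 1.14, SE 0.19, adjusted p = 0.00183), and at P3 the stages overlapped (log2 fold change 0.11, adjusted p = 0.713). Its lowest P10 library was replicate 1, which also had the lowest endothelial marker sum. At P3 its lowest library was replicate 3, which had the highest endothelial sum of that stage. Those P3 sums were 68.1, 68.4 and 87.8 CPM in replicates 1, 2 and 3. A link was not tested. The Efnb2 receptor Ephb4 averaged 33.3 ± 2.65 CPM at P10 and 34.5 ± 5.55 CPM at E17.5 (SD, n = 3 each) and did not pass (log2 fold change -0.05, adjusted p = 0.835). Efna4 had 7.37, 5.41 and 6.08 CPM at P3 and 5.34, 4.98 and 4.63 at P10, against 2.99, 2.63 and 3.96 CPM at E17.5 (log2 fold change 0.97 at P3, adjusted p = 0.00548, and 0.63 at P10, adjusted p = 0.0496). The P10 call for Efna4 ended without any 1 of E17.5 replicates 1 and 2, P3 replicates 1, 2 and 3, P7 replicates 1, 2 and 3 or P10 replicates 1, 2 and 3 (adjusted p between 0.0555 and 0.159). Efna3 fell at P10, with 0.772, 0.388 and 0.356 CPM at P10, against 2.38, 3.89 and 3.49 CPM at E17.5 (log2 fold change -2.67, adjusted p = 0.0112), a call that ended without P10 replicate 3 (adjusted p = 0.0548). Efnb1, the highest ephrin, had 59.2, 49.7 and 42.8 CPM at E17.5, 58.1, 62.7 and 62.1 CPM at P3, 52.5, 66.7 and 54.01 CPM at P7 and 45.4, 50.01 and 48.2 CPM at P10. It did not pass at P3 (log2 fold change 0.27, adjusted p = 0.152), but did without E17.5 replicate 1 (log2 fold change 0.40, adjusted p = 0.0430). Efna1, Efna2, Efna5 and Efnb3 passed neither comparison with all libraries, and Efna5 passed at P10 without P10 replicate 2 (log2 fold change -2.42, adjusted p = 0.00465).

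Of 6 tested EphA receptors 4 fell at P3 against E17.5 and 3 fell at P10, and 0 rose in edgeR's test. Epha2, at 1.42, adjusted p = 0.0607 for P3 and 1.54, adjusted p = 0.0567 for P10, was the one with a positive value in both. It passed in DESeq2 at P3 (log2 fold change 1.44, adjusted p = 0.0151) and at P10 (log2 fold change 1.55, adjusted p = 0.00977), and its unadjusted p in edgeR was 0.0164 at P3 and 0.0110 at P10. Epha2 had 5.39, 4.56 and 11.3 CPM at P3 and 13.8, 4.72 and 4.47 at P10, against 3.26, 2.53 and 2.14 CPM at E17.5. In each of the stages P3 and P10, 1 library lay far above the others. In limma-voom, 0 EphA receptors rose in either comparison. Epha3 (chromosome 16, 63543534 to 63864175, minus strand), whose promoter holds the TEAD core printed above, had 62.04, 59.2 and 37.4 CPM at E17.5, 23.9, 25.3 and 18.4 CPM at P3, 22.8, 13.02 and 11.2 CPM at P7 and 8.43, 7.76 and 16.9 CPM at P10. All postnatal libraries lay below those of E17.5. It fell at P3 (log2 fold change -1.23, SE 0.35, adjusted p = 0.0276) and at P10 (log2 fold change -2.26, SE 0.36, adjusted p = 0.00187), and the P3 call ended without any 1 of E17.5 replicates 1 and 2 or P3 replicates 1, 2 and 3 (adjusted p between 0.0678 and 0.0936). Epha5 (chromosome 5, 84054761 to 84417382, minus strand) had 6.59, 5.06 and 3.96 CPM at E17.5, 0.477, 0.342 and 0.743 CPM at P3, 0.149, 0.394 and 0.421 CPM at P7 and 0.178, 0.712 and 0.203 CPM at P10. It was above 1 CPM in the E17.5 libraries alone, with log2 fold changes of -3.31, adjusted p = 0.00188 at P3 and -3.83, adjusted p = 0.00112 at P10. Without P10 replicate 2 the P10 value was -4.71, adjusted p = 0.000753. Epha4, which binds ephrins of both classes, had 12.9, 19.8 and 17.9 CPM at E17.5, 8.05, 6.84 and 5.34 CPM at P3, 8.17, 9.58 and 8.84 CPM at P7 and 10.8, 16.95 and 17.3 CPM at P10. It fell at P3 (log2 fold change -1.32, SE 0.23, adjusted p = 0.00204), while at P10 its libraries overlapped those of E17.5 (log2 fold change -0.17, adjusted p = 0.660). At P10 those of Rgs5 overlapped E17.5 too, while those of Cspg4 and Notch3, also pericyte markers, lay below E17.5. Abcc9, Higd1b, Kcnj8, Mcam and Trpc6 of the same list did not pass at P3 against E17.5. Epha7 also fell at P3. Epha7 had 2.73, 3.19 and 1.82 CPM at P3, against 4.89, 4.87 and 5.95 CPM at E17.5 (log2 fold change -1.02, SE 0.29, adjusted p = 0.0264). That call ended without any 1 of E17.5 replicates 2 and 3 or P3 replicates 1 and 3 (adjusted p between 0.0591 and 0.0851). Epha1 had 1.84, 3.49 and 2.49 CPM at P10, against 20.05, 5.55 and 3.49 CPM at E17.5, and was highest in E17.5 replicate 1. Its call at P10 (log2 fold change -1.89, adjusted p = 0.0378) ended without any 1 of E17.5 replicate 1, P3 replicates 1 and 2, P7 replicates 1, 2 and 3 or P10 replicates 1, 2 and 3 (adjusted p between 0.0560 and 0.134), and without E17.5 replicate 1 the value was -0.79, adjusted p = 0.134. As summed means, the EphA receptors stood at 44.9 CPM at P3 and 39.9 at P10, against 92.5 CPM at E17.5.

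The EphB receptors, partners of the B ephrins, moved in both directions. Ephb2 had 8.49, 10.5 and 9.49 CPM at E17.5, 10.03, 7.86 and 11.8 CPM at P3, 4.63, 5.30 and 4.47 CPM at P7 and 2.32, 1.10 and 2.69 CPM at P10. Its P3 libraries overlapped those of E17.5, and every P10 library lay below every P7 library. It fell at P10 against P7 (log2 fold change -1.23, SE 0.28, adjusted p = 0.0422) and at P10 against E17.5 (log2 fold change -2.21, SE 0.28, adjusted p = 0.000424). The call at P10 against P7 ended without any 1 of E17.5 replicate 2, P3 replicates 1, 2 and 3, P7 replicates 1, 2 and 3 or P10 replicates 1, 2 and 3 (adjusted p between 0.0508 and 0.128). Ephb3 had 13.6, 14.8 and 17 CPM at E17.5, 19.2, 17.1 and 16.7 CPM at P3, 27.5, 27.5 and 27.8 CPM at P7 and 19.2, 23.2 and 24.5 CPM at P10. The P7 libraries were its highest, and it rose at P10 against E17.5 (log2 fold change 0.56, SE 0.12, adjusted p = 0.00819). Ephb1 averaged 1.02 ± 0.0632 CPM at P3 and 0.792 ± 0.0429 at P10, against 2.43 ± 1.01 CPM at E17.5 (SD, n = 3 each), and fell in both (log2 fold change -1.24 at P3, adjusted p = 0.0249, and -1.60 at P10, adjusted p = 0.00988). Its P3 call ended without any 1 of E17.5 replicate 2 or P3 replicates 1, 2 and 3 (adjusted p between 0.0569 and 0.123). Ephb6, which lacks kinase activity, averaged 1.24 ± 0.160 CPM at P10 and 4.55 ± 1.15 CPM at E17.5 (SD, n = 3 each) and fell (log2 fold change -1.86, adjusted p = 0.00346). Exons of Efna3, Efna4, Epha1, Ephb1, Ephb4, Plxna1, Plxna4, Plxnb1, Sema4c, Unc5a and Unc5c overlap a gene on the opposite strand, and those of Nrp1, Ntng2, Plxnc1 and Sema4a a gene on the same strand. Whether the authors counted by strand is not given in the sources used here, so reads of such neighbours could be mixed in.

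**Figure D5:**
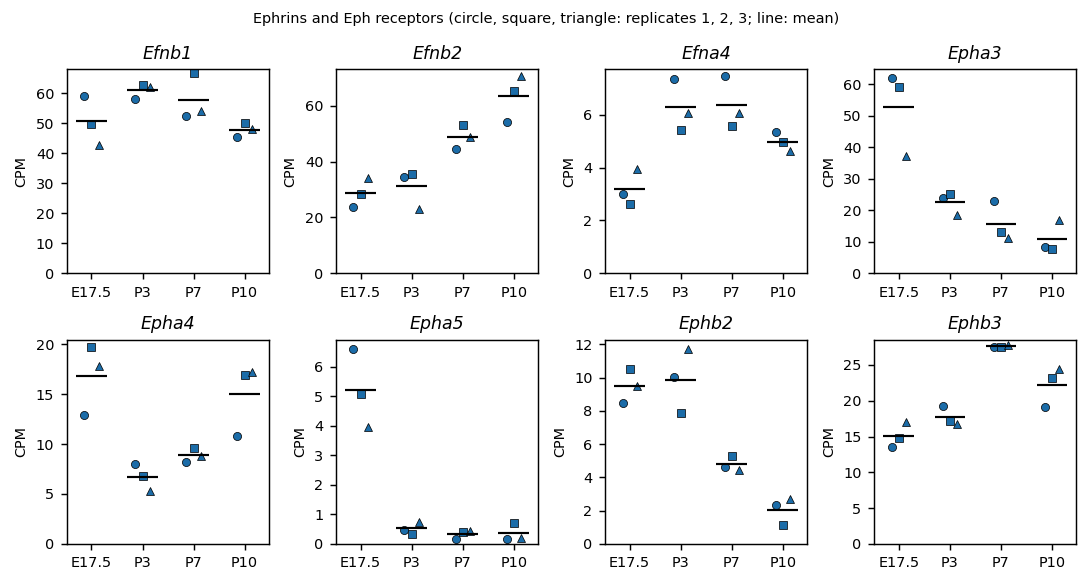
CPM (vertical axes) of ephrins and Eph receptors at each stage, with one point per library (circle, square and triangle for replicates 1, 2 and 3) and a line at the mean of 3. Epha3 and Epha5 are highest in all E17.5 libraries, Efnb2 is highest in the P10 libraries, and Ephb2 is lowest in the P10 libraries.

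Between postnatal stages fewer guidance genes passed. At P7 against P3, 0 of 60 passed in edgeR's quasi-likelihood test, against 0.00594% of all genes. An unadjusted p under 0.05 was found for 18 of 60 (30%, all genes 14.3%), and the libraries of the stages did not overlap for 29 of 60 (48.3%, all genes 25.9%). DESeq2 called 8 of 59 (all genes 4.64%), with Efnb2, Ephb3, Plxnb1, Plxnc1 and Sema3c higher and Ephb2, Nrp2 and Unc5c lower, and limma-voom called 0. Without E17.5 replicate 1, which takes no part in this contrast but enters the shared estimate of the spread, edgeR called 3 (all genes 0.412%). These were Ephb3 (log2 fold change 0.64, adjusted p = 0.0481), Nrp2 (log2 fold change -1.71, adjusted p = 0.0203) and Unc5c (log2 fold change -1.97, adjusted p = 0.0430). At P10 against P7, 2 of 60 passed (3.33%, all genes 3.64%), with Sema3c higher and Ephb2 lower as given above. That count lay between 0 and 5 with 1 library left out. It was 0 without any 1 of P7 replicates 1, 2 and 3 or P10 replicates 2 and 3, was 1 without any 1 of P3 replicates 1, 2 and 3, and was 5 without E17.5 replicate 3.

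Other genes of the guidance pathways, which carry the signal inside the cell or regulate it, were counted from a list of 78, of which 67 were tested. At P3 against E17.5, 12 rose and 12 fell (35.8% passed, all genes 25.1%). Dpysl3, a collapsin response mediator protein that links semaphorin signals to microtubules, rose. Dpysl3 had 9.75, 11.8 and 8.44 CPM at P3, against 3.81, 3.11 and 2.71 CPM at E17.5 (log2 fold change 1.64, SE 0.31, adjusted p = 0.00322). Ablim1, an actin-binding protein, had 1.22, adjusted p = 0.000256, and Srgap1, a GTPase-activating protein that binds Robo receptors, had 1.17, adjusted p = 0.000491, and both rose. Pik3r1 (log2 fold change -1.02, adjusted p = 0.00157), Sipa1l1 (log2 fold change -1.01, adjusted p = 4.59e-05) and Dpysl5 (log2 fold change -1.36, adjusted p = 0.0446) fell, and the Dpysl5 call ended without any 1 of E17.5 replicates 1, 2 and 3, P3 replicates 1 and 2, P7 replicates 2 and 3 or P10 replicates 1 and 2 (adjusted p between 0.0519 and 0.154). At P10 against E17.5, 15 rose and 7 fell (32.8% passed, all genes 18.3%). Dpysl3 (log2 fold change 2.89, adjusted p = 0.000142), Srgap1 (log2 fold change 1.85, adjusted p = 2.45e-05), Adgrl3 (log2 fold change 1.78, adjusted p = 1.23e-05), Ablim1 (log2 fold change 1.54, adjusted p = 5.29e-05) and the kinase Pak3 (log2 fold change 2.03, adjusted p = 0.0196) rose. The Pak3 call ended without any 1 of E17.5 replicates 1 and 2 or P10 replicate 3 (adjusted p between 0.0587 and 0.0720), and the value was 2.73, adjusted p = 0.00722 without E17.5 replicate 3. Ablim3 fell, with 0.772, 1.75 and 1.68 CPM at P10, against 37.2, 7.01 and 7.15 CPM at E17.5 (log2 fold change -3.61, adjusted p = 0.00789), and was -2.34, adjusted p = 0.00740 without E17.5 replicate 1. At P7 against P3, 0 of the 67 passed in edgeR's test (all genes 0.00594%), and 16 had an unadjusted p under 0.05 (all genes 14.3%). In DESeq2 8 passed (all genes 4.64%), and in limma-voom 0. At P10 against P7, Farp1 (log2 fold change 0.46, adjusted p = 0.0357) and Adgrl3 (log2 fold change 0.62, adjusted p = 0.0322) rose (2.99% of the list, all genes 3.64%). The Farp1 call ended without any 1 of E17.5 replicate 2, P3 replicates 1 and 2, P7 replicates 1, 2 and 3 or P10 replicates 1, 2 and 3 (adjusted p between 0.0520 and 0.136), and the Adgrl3 call without any 1 of P3 replicates 1 and 2, P7 replicates 1, 2 and 3 or P10 replicates 2 and 3 (adjusted p between 0.0519 and 0.125).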

How the data were processed

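The 12 libraries were assigned to stage by their labels. Per the labels, a stranded low-input total RNA kit was used, although the molecule label names polyadenylated RNA. The authors deposited estimated counts, scaled and stored as whole numbers. This unit was inferred from the values, in which the lowest values rise as transcripts shorten below 900 bases, as a scaling per transcript length would give. Per the submitters' processing notes the build was GRCm38. The software for alignment and quantification is not given in the sources used here. All columns were matched to samples.

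CPM used TMM library sizes. Genes were tested with edgeR 4.0.16 by quasi-likelihood (R 4.3.3, with limma 3.58.1), using 1 model over 12 libraries, edgeR's default filter on low counts by stage, robust fitting and Benjamini-Hochberg adjustment over 16827 genes at 0.05. The common dispersion was 0.145 and the median prior degrees of freedom 2.61. Depth was 13328623 to 18740591 estimated counts per library, which limits low genes most. Of these counts, 7SL and 7SK genes held from 20.0% (P10 replicate 3) to 46.3% (E17.5 replicate 2), so depth for other genes was lower and less even. TMM factors ran from 0.589 (E17.5 replicate 2) to 1.48 (P10 replicate 3). Gene positions are on GRCm38 from the GENCODE annotation and promoters from RefSeq.

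The gene members, the marker and pathway lists and the tests were chosen with earlier results of these data known. The alveolar fibroblast list was added after E17.5 replicate 1 was seen to stand apart. Macf1 was then dropped from it after its values were seen, a step that made E17.5 replicate 1 stand out more, so sums with and without it are given. Genes given per library were those that passed and reached 5 CPM, up to 12 per comparison by size of change, together with the 8 highest by mean and, per comparison, up to 6 other pathway genes. Some further genes are given per library beside their family.

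Alternatives were DESeq2 size factors, removal of 7SL and 7SK genes, other filters, DESeq2 1.42.0, limma-voom, a replicate block, only the stages compared, and each library left out.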

Additional observations from a re-analysis of the deposited data

How the results depend on the processing

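The counts of guidance genes that passed at any stage, at P3 against E17.5 and at P10 against E17.5 stayed within 1.5 times of 31, 20 and 27 in all alternatives run. With 1 library left out they ranged from 27 to 32, from 15 to 22 and from 20 to 26. At P7 against P3 the count of 0 was 8 with DESeq2 and ranged from 0 to 3 with 1 library left out. At P10 against P7 the count of 2 was 1 with no filter on low counts, 5 with DESeq2 and 4 with only the compared stages, and ranged from 0 to 5 with 1 library left out. The cause was not tested.

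Replicate numbers were used as a block in 1 fit. It gave 27 genes at any stage, 19 at P3 against E17.5, 0 at P7 against P3, 1 at P10 against P7 and 23 at P10 against E17.5. Deviations from the stage mean correlated between -0.195 and 0.136 for libraries with the same number, so the numbers were not taken to pair the samples.

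Over the 49 calls of single guidance genes and their alternatives, 854 of 978 kept the direction and the call, 124 kept the direction and lost the call, and 0 reversed. Other pathway genes numbered 24 at P3 against E17.5 and 22 at P10 against E17.5, and 14 in each with only the compared stages. At P10 against P7 they numbered 2, and 8 with DESeq2. Shares over all genes are not given here for these alternatives, so the counts are not set against them. With 3 libraries per stage and a large spread, low genes limit what could be detected.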
